A study of Homo sapiens with 4 samples.

Results

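The report covers 10 genes of small RNA silencing: the Argonautes AGO1, AGO2, AGO3 and AGO4, the GW182 proteins TNRC6A, TNRC6B and TNRC6C, and the microRNA processing factors DROSHA, XPO5 and DICER1. They were taken by symbol from a table of 40205 gene symbols, and all 10 were found and passed the filter on low counts that left 16120 genes. The counts come from RNA-seq of A549, a human lung adenocarcinoma cell line, 24 h after transfection of siRNA (small interfering RNA) with Lipofectamine iMAX. In 2 of the libraries it was against the long non-coding transcript SBF2-AS1 (Knockdown-670 and Knockdown-732, whose numbers the labels do not explain), and in the other 2 it was a negative control (control libraries 1 and 2). Both groups carried transfected siRNA and no untransfected cells were analysed here, so the comparison is between siRNAs, not between cells with and without siRNA. The labels do not mention separate cultures, and p-values here reflect only the spread between these libraries, which may be technical.

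MicroRNAs are cut from a primary transcript in the nucleus by DROSHA, an RNase III enzyme that works with the RNA-binding protein DGCR8. XPO5 (exportin 5) carries the resulting hairpin to the cytoplasm, and DICER1, the second RNase III enzyme, trims it to a short duplex. An Argonaute keeps 1 strand of the duplex, or of a transfected siRNA, as its guide; AGO2 is the Argonaute known to cut a fully paired target. GW182 proteins bind Argonautes through glycine-tryptophan repeats and bring in the enzymes that shorten the poly(A) tail and remove the cap of the target mRNA.

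The libraries held 12149767 and 12894529 counts with SBF2-AS1 siRNA and 12701132 and 12938143 with control siRNA. SBF2-AS1 had 15 and 18 counts with its siRNA against 57 and 79 in the controls (log2 fold change -1.94, SE 0.30, adjusted p = 3.19e-05 by edgeR). Of the A549 markers KRT8, KRT18, EPCAM, AKR1B10, AKR1C1 and ALDH1A1, all 6 were detected and CDKN2A, deleted in this line, had 0 counts in every library. Those markers summed to 5870 and 6028 CPM (counts scaled to a common library size; here without TMM, the scaling edgeR adds elsewhere) with SBF2-AS1 siRNA and to 11583 and 10980 in the controls. The 18 markers of other cell types summed to 22.4 and 22.2 CPM with SBF2-AS1 siRNA and to 22.8 and 22.2 CPM in the controls, with 8 and 6 of them at 0 counts against 9 and 7; CD14 and COL1A1 held most of these counts, CD3E, HBA2 and PIWIL3 were at 0 in every library, and PTPRC had 1 count in all. A set of 10 interferon-induced genes (IFIT1, IFIT2, IFIT3, MX1, ISG15, OAS1, OAS2, IFI44L, RSAD2 and IFI6) summed to 1122 and 1140 CPM with SBF2-AS1 siRNA and to 91.1 and 87.6 CPM in the controls. The part of the A549 marker and interferon differences in the results below was not tested.

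Of the 10 silencing genes, 6 rose with SBF2-AS1 siRNA and 0 fell (quasi-likelihood test of edgeR, threshold 0.05 after adjustment): DICER1, AGO1, AGO2, AGO4, TNRC6A and TNRC6B. Over all genes tested 46.3% were called, 23.5% as higher and 22.8% as lower. In bulk RNA, more transcript per cell and a larger share of cells that carry it cannot be told apart. At an unadjusted p under 0.05 the 10 genes gave 7 higher and 0 lower, where 26.7% of all genes were higher and 26.0% lower. DESeq2 called 6 of the 10 higher and 0 lower, with 17.9% of all its tested genes higher and 17.1% lower, and limma-voom called 6 higher and 0 lower, with 23.3% and 22.5% of all genes. The median log2 fold change of the 10 genes was 0.50, against -0.0024 over all genes tested. The 10 genes were chosen with earlier results of these data known, so these counts and medians are not an independent comparison. The changes were modest, 1.38-fold to 1.64-fold for the 6 genes called. All 6 also passed a test against a fold change of 1.2 (edgeR's glmTreat), which 15.2% of all genes passed as higher. AGO1 (adjusted p = 0.0479 by glmTreat) and AGO4 (adjusted p = 0.0405 by glmTreat) passed it only narrowly.

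**Figure D1:**
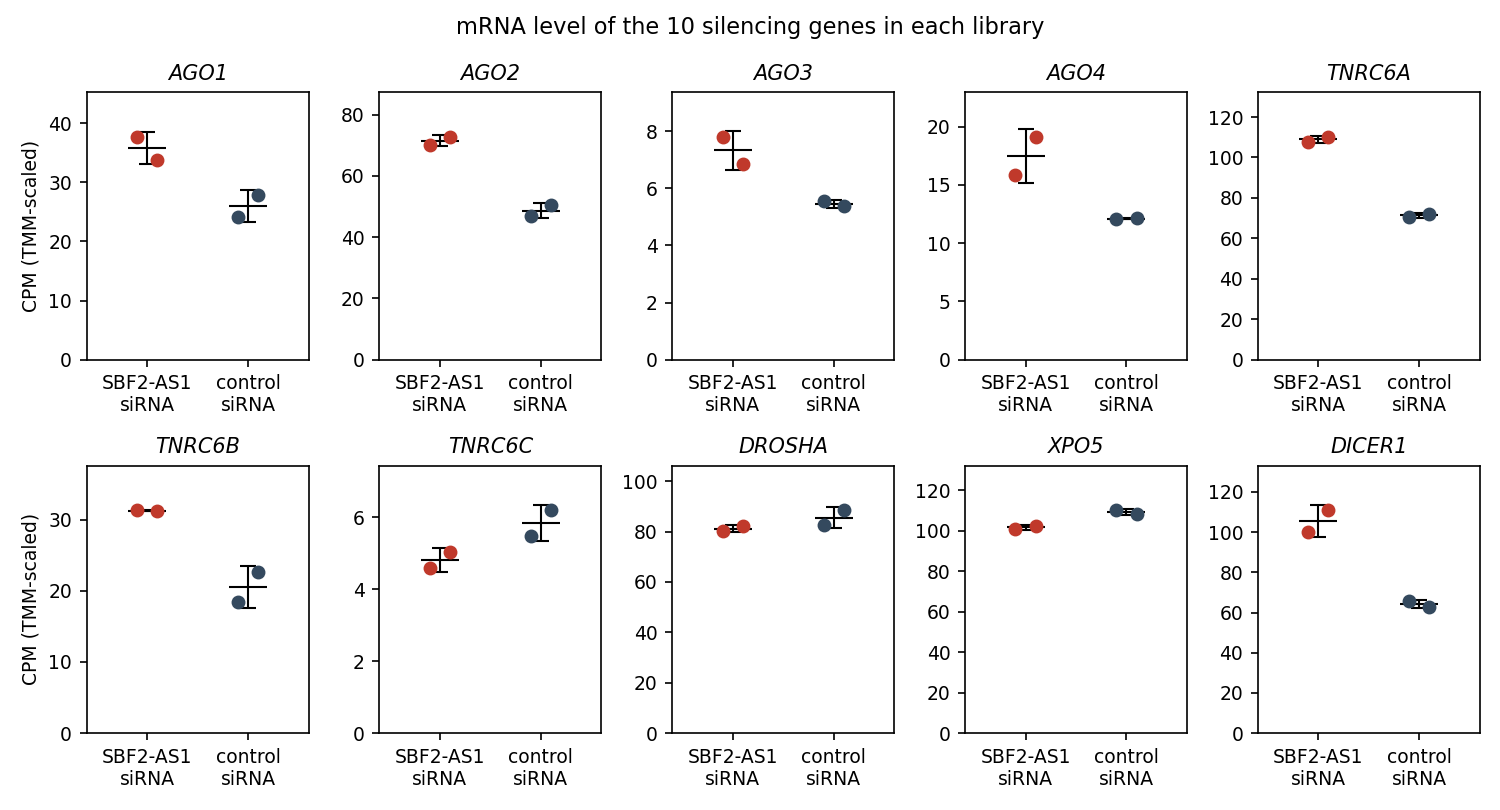
Level of each of the 10 genes in CPM (TMM-scaled, axes from 0), 1 point per library, with the mean and SD of each pair (n = 2). In 7 panels both SBF2-AS1 siRNA libraries lie above both controls, and in the panels of TNRC6C, DROSHA and XPO5 both lie below them. Among all genes tested the groups did not overlap in 72.6%.

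Of the 3 processing factors DICER1 rose, and DROSHA and XPO5 did not pass. DICER1, the cytoplasmic enzyme, had 99.9 CPM in Knockdown-670 and 111 CPM in Knockdown-732, against 65.8 and 62.8 CPM in control libraries 1 and 2. Both SBF2-AS1 siRNA libraries lay well above both controls, and the groups did not overlap. DICER1 averaged 105 ± 7.84 CPM with SBF2-AS1 siRNA and 64.3 ± 2.11 CPM in the controls (SD, n = 2 each). The log2 fold change was 0.71 with an SE of 0.08 (adjusted p = 7.88e-07 by edgeR). Its change, 64.0% upward, was the largest of the 10.

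DROSHA, the nuclear enzyme, had 80.2 and 82.2 CPM with SBF2-AS1 siRNA, against 82.6 and 88.5 CPM in the controls. Both SBF2-AS1 siRNA libraries were just below the lower control, by less than the gap between the controls. The log2 fold change was -0.08 (95% interval -0.24 to 0.09, adjusted p = 0.445 by edgeR), so the interval leaves room for a small fall but not for a rise of the size seen for DICER1. XPO5, the export receptor, had 101 and 102 CPM with SBF2-AS1 siRNA and 110 and 108 CPM in the controls, without overlap. Its log2 fold change was -0.10 (95% interval -0.25 to 0.05, adjusted p = 0.257 by edgeR).

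The count ratio of 2 genes within a library does not depend on how libraries are scaled; the pairs given here were chosen after the values were seen. DICER1 had 1176 and 1408 counts to the 944 and 1043 of DROSHA with SBF2-AS1 siRNA, and 851 and 831 counts to the 1068 and 1171 of DROSHA in the controls. DICER1 was thus the more counted of the pair with SBF2-AS1 siRNA and the less counted in both controls. For each XPO5 count there were 0.990 and 1.08 DICER1 counts with SBF2-AS1 siRNA and 0.597 and 0.581 in the controls. The fold of the DICER1 to DROSHA ratio between groups was 1.72 and that of DICER1 to XPO5 was 1.76. In an exact two-sided permutation test both gave p = 0.333, the smallest p that 2 libraries against 2 allow.

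Of the 4 Argonautes 3 rose, and AGO3 did not pass. AGO2 had 70.2 and 72.8 CPM with SBF2-AS1 siRNA, against 47.0 and 50.3 CPM in the controls. The groups were far apart relative to the gap within each, and the log2 fold change was 0.56 (SE 0.08, adjusted p = 2.50e-05 by edgeR). AGO1, a close paralog that also loads microRNAs, had 37.7 and 33.8 CPM with SBF2-AS1 siRNA and 24.0 and 27.8 CPM in the controls. The lowest SBF2-AS1 siRNA library was above the highest control, with a log2 fold change of 0.46 (SE 0.11, adjusted p = 0.00271 by edgeR). Correcting for the GC content and length of transcripts lowered the value to 0.30 (adjusted p = 0.0264 by edgeR).

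AGO4 had 15.9 and 19.1 CPM with SBF2-AS1 siRNA, against 12.1 and 12.2 CPM in the controls. The controls were nearly equal, and the SBF2-AS1 siRNA libraries differed from each other more than they did for AGO2. The log2 fold change was 0.53 (SE 0.14, adjusted p = 0.00535 by edgeR); without Knockdown-732, the higher library, it was 0.38 and no longer passed (adjusted p = 0.0875 by edgeR). AGO3, the scarcest of the 4, had 7.81 and 6.86 CPM with SBF2-AS1 siRNA and 5.57 and 5.37 CPM in the controls, from 71 to 92 counts per library. The groups did not overlap, but the log2 fold change of 0.42 missed the threshold (95% interval 0.01 to 0.83, adjusted p = 0.0846 by edgeR).

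AGO4, AGO1 and AGO3 lie head to tail on the + strand of chromosome 1, in that order, from position 35808172 to 36072500 in GENCODE v29 on GRCh38. The gap from AGO4 to AGO1 is 11917 bases and that from AGO1 to AGO3 is 189 bases. The other 7 genes lie apart from them on 7 other chromosomes: AGO2 on 8, TNRC6A on 16, TNRC6B on 22, TNRC6C on 17, DROSHA on 5, XPO5 on 6 and DICER1 on 14. AGO2, TNRC6A, TNRC6B and DICER1, which rose, thus lie at 4 loci apart from the cluster. Any part of location in the changes was not tested.

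Summed over the 4 Argonaute genes there were 132 and 133 CPM with SBF2-AS1 siRNA, against 88.7 and 95.7 CPM in the controls, 1.43-fold more. AGO2 gave 53.4% (95% Wilson interval 50.9 to 55.8) and 54.9% (52.5 to 57.3) of these counts with SBF2-AS1 siRNA, and 53.0% (50.1 to 55.9) and 52.6% (49.9 to 55.3) in the controls. AGO1 gave 28.6 and 25.5% with SBF2-AS1 siRNA and 27.1 and 29.1% in the controls, so the groups overlapped. AGO4 gave 12.1 and 14.4% against 13.6 and 12.7% in the controls, and AGO3 gave 5.94 and 5.17% against 6.28 and 5.61%. The mean shares of the groups differed by at most 1.32 percentage points, for AGO2. Without Knockdown-670 the difference was 2.09 points for AGO2 and -2.60 points for AGO1, without control library 1 it was -2.0 points for AGO1, and without Knockdown-732 it was 0.55 points for AGO1, the opposite sign of the -1.02 over all libraries. The exact permutation test cannot go below p = 0.333 with these libraries. The intervals cover counting error only.

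Of the 3 GW182 genes TNRC6A and TNRC6B rose, and TNRC6C did not pass. Summed, they gave 144 and 147 CPM with SBF2-AS1 siRNA and 94.6 and 101 CPM in the controls, 1.48-fold more. TNRC6A, the most counted of them, had 108 and 110 CPM with SBF2-AS1 siRNA, against 70.6 and 72.1 CPM in the controls. Each pair was tight and the pairs were far apart, with a log2 fold change of 0.61 (SE 0.07, adjusted p = 2.04e-06 by edgeR). TNRC6B had 31.3 and 31.2 CPM with SBF2-AS1 siRNA and 18.5 and 22.7 CPM in the controls. The SBF2-AS1 siRNA libraries were almost equal and the controls were not, and the log2 fold change was 0.60 (SE 0.12, adjusted p = 0.000572 by edgeR).

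TNRC6C had 4.59 and 5.04 CPM with SBF2-AS1 siRNA and 5.49 and 6.20 CPM in the controls, from 54 to 82 counts per library. Both SBF2-AS1 siRNA libraries were below both controls, but the log2 fold change of -0.28 did not pass (95% interval -0.72 to 0.17, adjusted p = 0.299 by edgeR). TNRC6C made up 3.19% (95% Wilson interval 2.45 to 4.14) and 3.44% (2.70 to 4.37) of the GW182 counts with SBF2-AS1 siRNA, against 5.81% (4.63 to 7.26) and 6.14% (4.97 to 7.55) in the controls. The intervals cover counting error only, and the exact permutation test over libraries gave p = 0.333, its smallest value. A share also moves with the other genes of the pool, and TNRC6A and TNRC6B rose. For each TNRC6C count there were 23.5 and 21.9 TNRC6A counts with SBF2-AS1 siRNA and 12.9 and 11.6 in the controls. On the opposite strand TNRC6C-AS1 shares 1438 exon bases with TNRC6C; it had 44 and 44 counts with SBF2-AS1 siRNA and 28 and 22 in the controls (log2 fold change 0.91, adjusted p = 0.0164 by edgeR). With the strand setting of the counting unknown here, reads of that pair cannot be told apart. The same holds for the 348 exon bases that XPO5 shares with POLR1C and the 80 that DICER1 shares with DICER1-AS1, at log2 fold changes of -0.17 for POLR1C and 0.08 for DICER1-AS1, neither past the threshold.

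**Figure D2:**
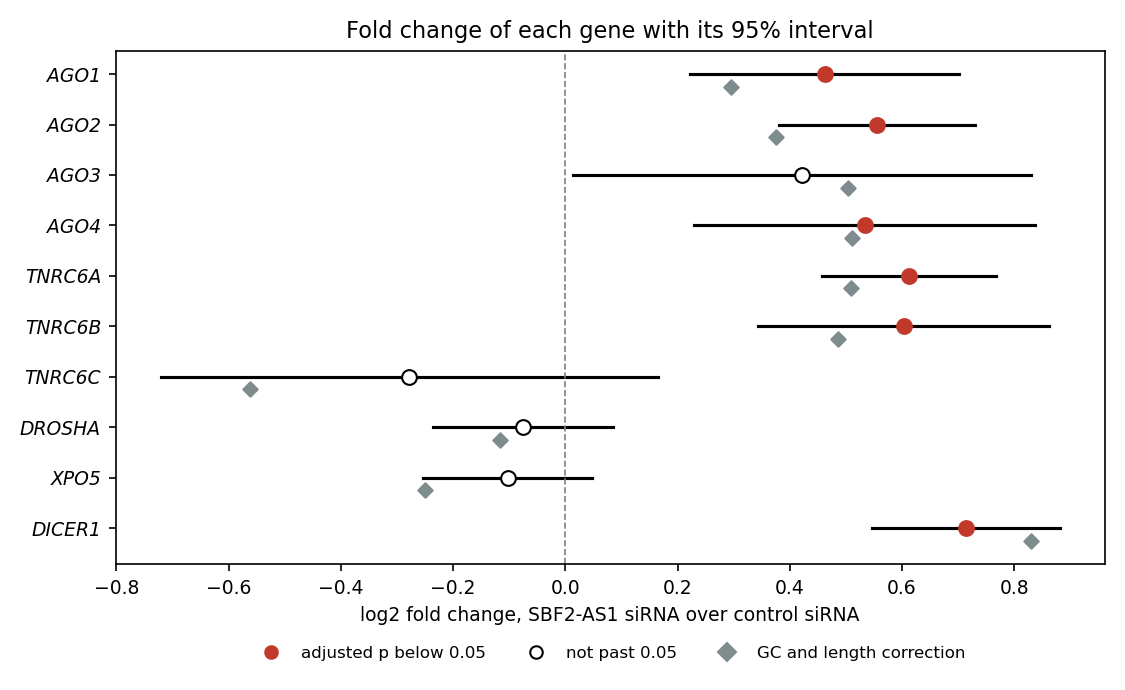
Log2 fold change of each gene, SBF2-AS1 siRNA over control siRNA, from edgeR (circles, filled at an adjusted p below 0.05) with its 95% interval, and the value corrected for GC content and length (diamonds). The 4 Argonautes, TNRC6A, TNRC6B and DICER1 lie between 0.42 and 0.71, and DROSHA, XPO5 and TNRC6C lie between -0.28 and -0.08.

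The log2 ratio of a gene to the mean of the controls was taken in Knockdown-670 and then in Knockdown-732. For DICER1 the ratios were 0.64 and 0.79, and for TNRC6A they were 0.60 and 0.63. AGO1 was higher in Knockdown-670, at 0.54 against 0.38 in Knockdown-732, and AGO4 was higher in Knockdown-732, at 0.66 against 0.39 in Knockdown-670. AGO3 stood at 0.52 and 0.33, and TNRC6C at -0.35 and -0.21. All 10 genes kept the libraries of the groups apart, 7 above and 3 below the controls; over all genes tested the groups did not overlap in 72.6%, 36.4% above and 36.2% below.

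With the correction for GC content and length 7 of the 10 genes were called higher and 2 lower, where 21.6% of all genes tested in that fit were higher and 23.8% lower. AGO3 passed at 0.50 (adjusted p = 0.0408 by edgeR). XPO5 passed as lower at -0.25 (adjusted p = 0.00378 by edgeR), and so did TNRC6C at -0.56 (adjusted p = 0.0325 by edgeR). DROSHA stood at -0.12 and did not pass. DICER1, whose longest transcript is among the poorest in G and C of the 10 at 39.2%, stood at 0.83. The other genes called higher without the correction stood lower with it, and still passed. AGO1 stood at 0.30, AGO2 at 0.37, AGO4 at 0.51, TNRC6A at 0.51 and TNRC6B at 0.49.

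Compared per length, the processing factors were above the Argonautes. In CPM per kilobase of the longest annotated transcript, XPO5 stood at 18.9 ± 0.195 with SBF2-AS1 siRNA and 20.3 ± 0.276 in the controls (SD, n = 2 each), the highest level of the 10. DROSHA followed at 15.3 ± 0.270 with SBF2-AS1 siRNA and 16.1 ± 0.790 in the controls. TNRC6A came next at 12.9 ± 0.207 with SBF2-AS1 siRNA and 8.46 ± 0.127 in the controls, and DICER1 at 10.2 ± 0.759 and 6.22 ± 0.205 in the same order. AGO2, the highest Argonaute, was at 4.90 ± 0.125 with SBF2-AS1 siRNA and 3.34 ± 0.161 in the controls. AGO1 and AGO4 were neighbours in this order; their libraries overlapped with SBF2-AS1 siRNA and in the controls were a narrow step apart, AGO1 at 2.61 ± 0.201 with SBF2-AS1 siRNA and 1.89 ± 0.194 in the controls and AGO4 at 2.46 ± 0.325 and 1.70 ± 0.0106 in the same order. TNRC6B, TNRC6C and AGO3 were the lowest, AGO3 at 0.373 ± 0.0344 with SBF2-AS1 siRNA and 0.278 ± 0.0072 in the controls. The order was the same in both groups. It depends on the length used: per kilobase of coding sequence AGO2 moved up to rank 2 with SBF2-AS1 siRNA and rank 3 in the controls, and TNRC6C became the lowest.

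**Figure D3:**
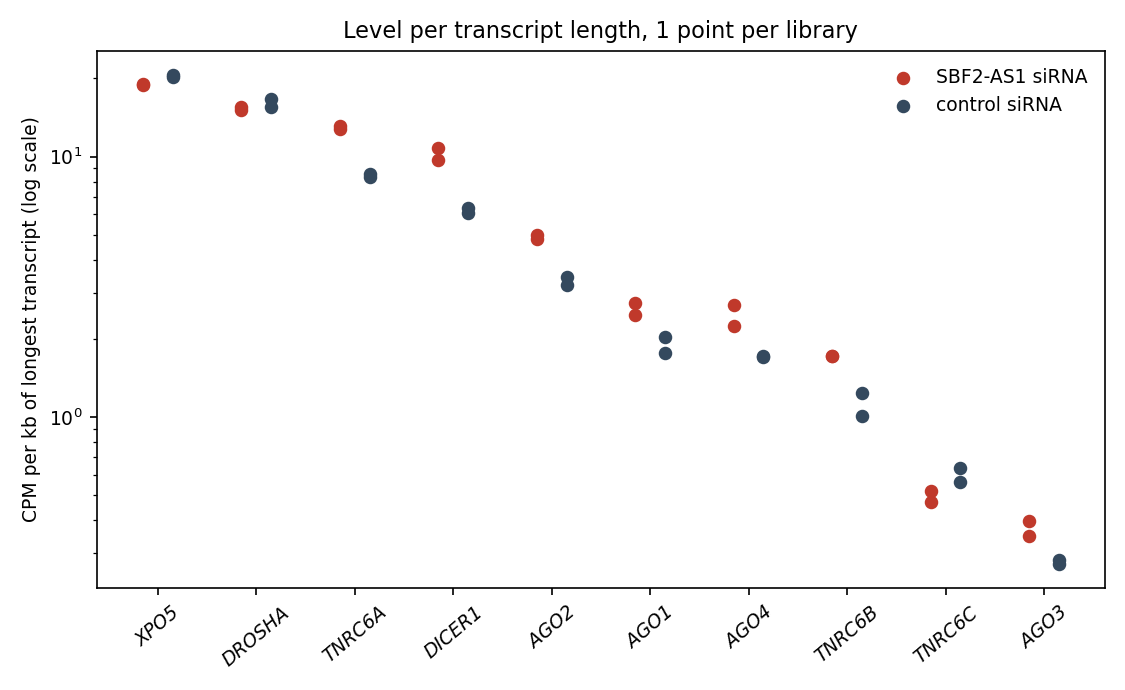
Level of each gene in CPM per kilobase of its longest annotated transcript (log scale), 1 point per library, ordered by the mean of the controls. XPO5 and DROSHA are highest in both groups, and AGO1 and AGO4 overlap with SBF2-AS1 siRNA but not in the controls.

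Among genes that rose, 4 have a single promoter entry in the RefSeq table of GRCh38.p14 and lie on chromosomes whose sequence is shown here. Shown are 300 bases, from 250 before that RefSeq start to 50 after it. In GENCODE v29 AGO1 starts at 35869808 and TNRC6A at 24610209, so their windows lie inside the genes as placed there. Windows at those other starts are not shown. Capitals mark CCAAT or its reverse complement ATTGG, the only motif of those searched that was found in the 4 windows.
AGO4, chr1:35807766-35808065, + strand: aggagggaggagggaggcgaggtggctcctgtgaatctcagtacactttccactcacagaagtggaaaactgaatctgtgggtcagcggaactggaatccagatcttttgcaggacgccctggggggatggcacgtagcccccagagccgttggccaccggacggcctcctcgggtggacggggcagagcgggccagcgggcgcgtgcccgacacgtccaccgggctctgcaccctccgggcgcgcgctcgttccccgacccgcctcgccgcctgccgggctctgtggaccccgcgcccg
AGO1, chr1:35882959-35883258, + strand: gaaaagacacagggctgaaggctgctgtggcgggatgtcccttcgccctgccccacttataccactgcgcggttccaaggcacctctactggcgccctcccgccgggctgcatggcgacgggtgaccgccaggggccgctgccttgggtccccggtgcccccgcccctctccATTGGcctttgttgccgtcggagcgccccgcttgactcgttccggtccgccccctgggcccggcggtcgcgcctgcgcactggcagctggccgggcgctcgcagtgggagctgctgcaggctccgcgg
TNRC6A, chr16:24729401-24729700, + strand: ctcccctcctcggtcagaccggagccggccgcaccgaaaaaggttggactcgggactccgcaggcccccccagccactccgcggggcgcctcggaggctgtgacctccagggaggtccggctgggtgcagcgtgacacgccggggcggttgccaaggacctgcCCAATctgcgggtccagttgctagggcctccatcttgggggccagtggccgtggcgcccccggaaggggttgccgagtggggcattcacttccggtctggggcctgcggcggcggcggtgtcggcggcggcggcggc
TNRC6B, chr22:40044584-40044883, + strand: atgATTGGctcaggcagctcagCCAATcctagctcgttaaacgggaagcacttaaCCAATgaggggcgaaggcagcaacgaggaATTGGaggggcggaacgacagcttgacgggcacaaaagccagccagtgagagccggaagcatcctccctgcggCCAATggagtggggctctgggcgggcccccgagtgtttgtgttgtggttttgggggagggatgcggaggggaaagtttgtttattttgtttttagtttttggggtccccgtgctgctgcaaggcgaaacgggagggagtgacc

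The windows of AGO4, AGO1 and TNRC6A were at 69.0, 72.3 and 73.7% G and C, above the median of 58.7% over all promoters. That of TNRC6B was near this median, at 57.3%, and held 5 CCAAT boxes. In all, 9 of the 10 genes matched the table, with 16 entries. The core of the interferon-stimulated response element (GAAA, any 2 bases, GAAA) was searched, like all motifs here, on both strands and found in 1 of the 16 entries, at a TNRC6C start, and in 3.57% of all 35116 promoters. The gamma-interferon motif TTCNNNGAA was in 0 of the 16 and in 7.66% of all. The E2F forms TTTCCCGC and TTTGGCGC were in 0 of the 16 and in 1.63 and 0.652% of all. CCAAT, on either strand, was in 7 of the 16 and in 34.6% of all. These matches describe letters in a window and show no binding.

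Of 23 tested genes that act in microRNA processing, 5 rose and 10 fell, where 23.5% of all genes tested rose and 22.8% fell. The median was -0.19 on the log2 scale, against -0.0024 over all genes tested. Among the direct partners, DGCR8, which works with DROSHA, had 25.6 and 29.5 CPM with SBF2-AS1 siRNA and 30.3 and 32.9 CPM in the controls (log2 fold change -0.20, adjusted p = 0.165 by edgeR); with the GC and length correction it passed as lower at -0.43. RAN, the GTPase that drives export by XPO5, fell by 0.46 on the log2 scale (adjusted p = 0.000207 by edgeR), and by 0.25 with the GC and length correction. Of the DICER1 partners, TARBP2 had 13.4 and 13.1 CPM with SBF2-AS1 siRNA against 18.6 and 17.9 CPM in the controls. Its log2 fold change was -0.46 (adjusted p = 0.00905 by edgeR). The adjusted p was 0.0649 in DESeq2 and 0.0779 in glmTreat, neither past the threshold. With the GC and length correction TARBP2 stood at -0.61 (adjusted p = 0.000444 by edgeR). PRKRA, the other one, had 16.4 and 15.3 CPM against 24.0 and 21.4 CPM in the controls (log2 fold change -0.52, adjusted p = 0.00305 by edgeR), but -0.13 (adjusted p = 0.421) with the GC and length correction. The largest rise of the list was that of ADAR, an RNA-editing enzyme with an interferon-induced form, at 835 and 836 CPM with SBF2-AS1 siRNA and 415 and 464 CPM in the controls (log2 fold change 0.93, adjusted p = 6.10e-09 by edgeR). SRSF3, a splicing factor that aids DROSHA, fell by 0.73 and METTL3, an RNA methyltransferase, by 0.54 on the log2 scale. SRSF3 fell by 0.47 and METTL3 by 0.33 once GC content and length were corrected for, both still past the threshold.

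Genes that load or regulate Argonautes were split, with 8 of 25 tested higher and 10 lower and a median log2 fold change of -0.03. Of all genes tested, 23.5% were higher and 22.8% lower, the shares to set beside both lists here. HSPA8, a chaperone of the loading machinery, rose by 0.87 and P4HA1, a prolyl hydroxylase subunit of the enzyme that modifies AGO2, by 0.72 on the log2 scale. Of the other chaperones and cochaperones listed, HSP90AA1 fell by 0.58, FKBP4 by 0.34 and PTGES3 by 0.25, all past the threshold. HSP90AB1 at 0.05 and STIP1 at -0.05 did not pass. These other chaperones and cochaperones were chosen after their values were seen. SND1, a nuclease of the silencing complex, rose by 0.67, and ZSWIM8, a ubiquitin ligase adaptor that marks Argonautes for decay when a target directs microRNA loss, by 0.90 (0.43 with the GC and length correction, still past the threshold). The deadenylation, decapping and decay genes that GW182 proteins call on gave 6 higher and 9 lower of 33 tested, with a median of 0.08. CNOT1, the scaffold of the deadenylase bound by GW182 proteins, had 435 and 459 CPM with SBF2-AS1 siRNA and 489 and 491 CPM in the controls (log2 fold change -0.13, adjusted p = 0.11 by edgeR); it passed as lower with library size only (-0.20) and with the GC and length correction (-0.21). CNOT6, a catalytic partner of CNOT1, fell by 0.93 on the log2 scale. PAN2, of the other deadenylase, fell by 0.78 and the decapping activator DCP1A by 0.66. Related genes, chosen after their values were seen, were mixed. CNOT7 fell by 0.53, while CNOT8 rose by 0.41 and EDC4 by 0.31, all past the threshold. CNOT6L at 0.01, PAN3 at 0.06, DCP1B at 0.11 and DCP2 at 0.08 did not pass. TOB2, which recruits deadenylases, rose by 0.67 (0.43 with the GC and length correction, still past the threshold). PABPC1, the poly(A)-binding protein that GW182 proteins contact, rose by 0.37, but did not pass against a fold change of 1.2 (adjusted p = 0.0811 by edgeR's glmTreat). DDX6, a helicase of translational repression, was at 0.22 with an edgeR adjusted p of 0.0494, a call that was lost in 8 of 14 alternatives.

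**Figure D4:**
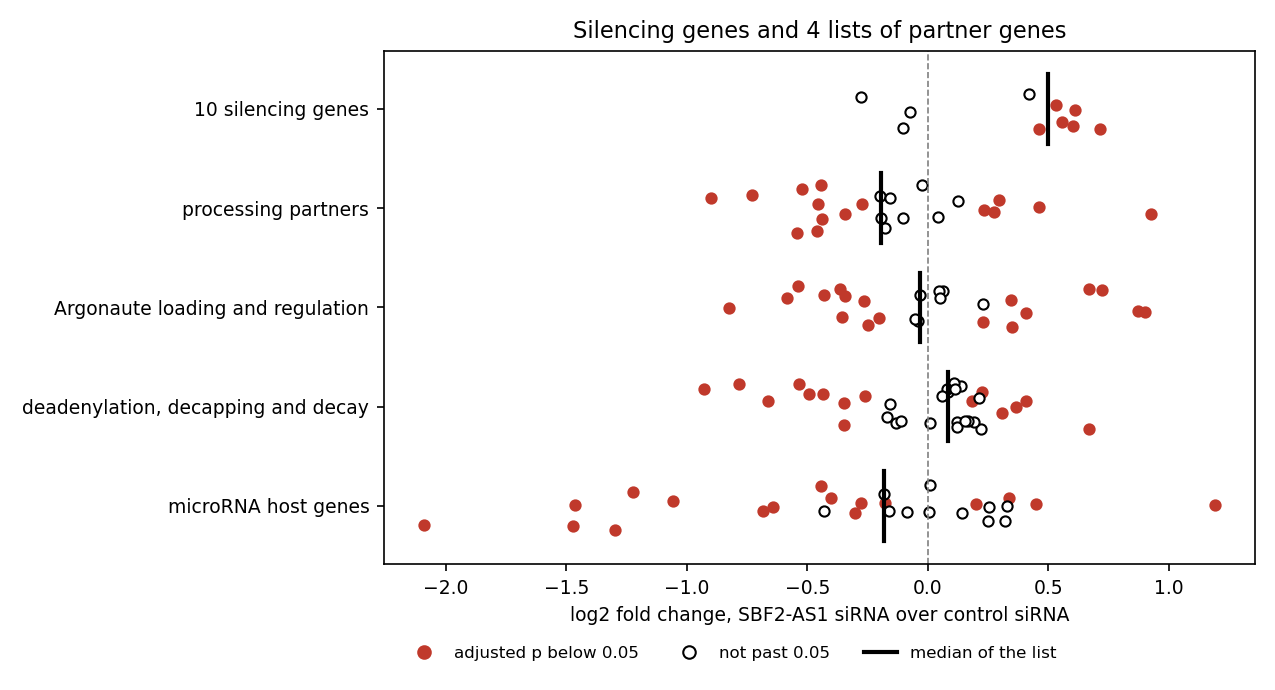
Log2 fold change of each tested gene, SBF2-AS1 siRNA over control siRNA, for the 10 silencing genes and 4 lists of partner genes; filled points passed an adjusted p of 0.05 and bars mark the medians. The median of the 10 genes is 0.50, and those of the lists lie between -0.19 and 0.08. The genes and the lists were chosen with earlier results of these data known.

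Neither mature microRNAs nor the hairpins they are cut from were measured. Host genes were seen only as counts per gene, which do not separate spliced mRNA from the primary transcript. Of 28 tested host genes, 4 rose and 13 fell, where 23.5% of all genes tested rose and 22.8% fell. Their median was -0.18 on the log2 scale. MIR17HG, the host of the miR-17-92 cluster, had 2.12 and 1.97 CPM with SBF2-AS1 siRNA and 4.41 and 5.67 CPM in the controls (log2 fold change -1.30, adjusted p = 0.00066 by edgeR). MCM7, a replication helicase subunit whose intron holds the miR-106b-25 cluster, fell by 1.22, and SMC4, a condensin subunit with miR-15b, by 1.47 on the log2 scale. DLEU2, with miR-15a and miR-16, fell by 1.47 (SE 0.34, adjusted p = 0.0016 by edgeR) and MIR210HG rose by 1.19. Both were chosen after their values were seen. Counts were low for DLEU2, 17 and 15 with SBF2-AS1 siRNA against 57 and 38 in the controls. H19, the host of miR-675, fell by 2.09 (SE 0.21), from 126 and 158 counts in the controls to 30 and 32 with SBF2-AS1 siRNA. The phosphatase CTDSP1, the host of miR-26b, fell by 1.06.

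Mature sequences of 5 of these hosts (MIR17HG, MCM7, SMC4, DLEU2 and MIR210HG) show which of them share a seed; the microRNAs of H19, CTDSP1 and the other hosts are not shown. Capitals mark the seed, bases 2 to 8. Sequences are from RefSeq on GRCh38.p14.
miR-17-5p: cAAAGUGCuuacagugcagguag
miR-18a-5p: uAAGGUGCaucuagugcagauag
miR-19a-3p: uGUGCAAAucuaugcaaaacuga
miR-20a-5p: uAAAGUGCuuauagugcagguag
miR-19b-3p: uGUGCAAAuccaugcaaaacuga
miR-92a-3p: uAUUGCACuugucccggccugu
miR-106b-5p: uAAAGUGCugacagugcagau
miR-93-5p: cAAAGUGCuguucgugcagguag
miR-25-3p: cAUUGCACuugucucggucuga
miR-15a-5p: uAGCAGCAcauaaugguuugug
miR-16-5p: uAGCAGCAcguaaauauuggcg
miR-15b-5p: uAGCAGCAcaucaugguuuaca
miR-210-3p: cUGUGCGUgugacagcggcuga
The seed AAAGUGC was shared by 4 of them, from both MIR17HG and MCM7, and AUUGCAC by miR-92a-3p and miR-25-3p of the same hosts. AGCAGCA was shared by 3, from DLEU2 and SMC4, and GUGCAAA by miR-19a-3p and miR-19b-3p. The seed of miR-210-3p, whose host rose, matched none of the others.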

How the data were processed

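The deposited values are raw counts by gene symbol in 4 libraries; per the labels' protocols, A549 RNA was extracted with Trizol and libraries were run on an Ion Proton. GRCh37 is the build in the submitters' processing notes (aligner, counter, annotation and strand setting not given in the sources used here). The table had 40205 symbols, 14572 of them without a count, and 0 columns of no sample. Groups came from the sample titles. Replicates differed by more than counting noise (chi-square per gene 3.61 with SBF2-AS1 siRNA and 3.95 in the controls), so none was a copy.

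The test was that of edgeR 4.0.16 (R 4.3.3), with filterByExpr, TMM scaling, a robust glmQLFit, glmQLFTest and Benjamini-Hochberg adjustment over 16120 genes at 0.05. SE is the log2 fold change over the root of F. CPM (counts per 1e6) are TMM-scaled unless library size is named. The biological coefficient of variation was 6.64%. On simulated counts for 15857 genes 66.0% of 50 changes of 1.5-fold were called. There 132 genes were called in all, against 7463 of 16120 in these libraries. The simulated share therefore does not give the power of this comparison. Shares carry Wilson 95% intervals. GENCODE v29 and RefSeq, on GRCh38 and not the authors' build, were joined by symbol (28572 directly, 1199 by synonym, 10434 not). The correction for GC content and length used the longest transcript, known for 91.0% of tested genes.

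The 10 genes and the lists were chosen with earlier results of these data known. Named beside the 10 were a fixed set (SBF2-AS1, DGCR8, TARBP2, PRKRA, ADAR, DDX6, CNOT1, PABPC1, MIR17HG) and up to 4 called genes of smallest p with non-overlapping libraries from each list. Other genes of the 4 partner lists are marked in the text as chosen after their values were seen. Alternatives were other scalings and filters, each library left out, DESeq2 1.42.0, limma-voom (limma 3.58.1), a non-robust fit, glmTreat, an adjusted p of 0.1, the GC and length correction and coding lengths.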

Additional observations from a re-analysis of the deposited data

How the results depend on the processing

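No paired analysis was possible because the groups share no replicate numbers. Of the 10 genes, 6 were called higher in 12 of 15 alternatives. The count was 7 with the GC and length correction and at an adjusted p of 0.1, and 5 without Knockdown-732; 0 were called lower except 2 with the GC and length correction. Against a fold change of 1.2, 9 partner genes were higher and 26 lower, in place of 23 and 42 of 109 tested, and 2451 of all genes were higher and 2229 lower, in place of 3785 and 3678. With library size only the split over all genes was 3243 higher and 4265 lower. With coding length 4 of the 10 genes kept their rank with SBF2-AS1 siRNA and 5 in the controls. Leaving out 1 library gave 5 to 6 of the 10 genes higher and 0 lower, 19 to 22 partner genes higher and 36 to 39 lower, and 3145 to 3365 of all genes higher and 3069 to 3391 lower. Over 14 alternatives DICER1 ran from 0.62 to 0.83, AGO2 from 0.37 to 0.60 and TNRC6A from 0.51 to 0.63 on the log2 scale, all past the threshold, and DROSHA from -0.14 to -0.03, never past it. Depth limits TNRC6C and AGO3 most, at 54 to 92 counts per library.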

Other observations

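Of the genes within 100 kb of the AGO4, AGO1 and AGO3 cluster on chromosome 1, 5 were tested; they were looked at after the values of the cluster were seen. CLSPN, a replication checkpoint adaptor on the opposite strand before AGO4, had 3.65 and 3.86 CPM with SBF2-AS1 siRNA and 11.9 and 17.2 CPM in the controls (log2 fold change -1.95, adjusted p = 4.19e-07 by edgeR). C1orf216 rose by 0.74 (edgeR adjusted p = 0.00121) and ADPRHL2, an ADP-ribosyl hydrolase, by 0.54 (edgeR adjusted p = 0.00334) on the log2 scale. TRAPPC3 at 0.15 and MAP7D1 at 0.15 did not pass.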
